A study of Mus musculus with 6 samples.

Results

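The p53 target genes described here are genes that the transcription factor p53 is known to switch on, together with Trp53, the gene for p53 itself. They were taken by symbol from a list of 33 genes, and 30 of them had a row among the 13932 genes of the deposited count table. Ddit4l, Pidd1 and Tigar had no row under these symbols and were left out. RNA came from donor-derived common myeloid progenitors, bone marrow cells sorted as lineage-negative, c-Kit-positive, Sca-1-negative, CD34-positive and Fc gamma receptor-negative. Recipient mice had been transplanted with marrow of the genotype U2AF1(S34F)/rtTA (S34F) or U2AF1(WT)/rtTA (WT), so both groups carried a U2AF1 transgene and the rtTA transactivator. Engraftment lasted more than 6 weeks, and both groups then received doxycycline chow for 5 days. Each genotype had 3 libraries, each made from the pooled marrow of 4 to 5 mice. The sources used here do not give the promoter that drives rtTA or the age of the mice. Genotypes were read from the sample titles, because the genotype entry of all 6 samples names S34F.

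U2AF1 belongs to the splicing factor that finds where introns end, by contact with their terminal AG. S34F is a recurrent change of this protein in myelodysplastic syndromes and in acute myeloid leukaemia. In unstressed cells p53 is kept low by the ubiquitin ligase Mdm2, which is itself a p53 target. After DNA damage or other stress p53 accumulates, binds a paired decamer near its targets and raises genes for cell cycle arrest, cell death and repair, and blood progenitors are among the cells most sensitive to it.

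Most of the 30 genes had higher levels in S34F than in WT, with the widest separation at Phlda3, Epha2, Eda2r and Zmat3. Of the 30, 23 had a log2 fold change above 0, against 49.1% of the 13905 genes tested, and their median was 0.35 against -0.01 for all genes. In 13 of them every S34F library was above every WT library, which was the case for 7.16% of all genes, and in 0 was every S34F library below every WT library (8.47% of all genes). An unadjusted p below 0.05 in edgeR's quasi-likelihood test was reached by 14 members, all higher in S34F, against 4.39% of all genes in that direction, and by 0 members lower in S34F (4.70% of all genes). After Benjamini-Hochberg adjustment over all genes the same test called 0 of the 30 and 0 of the 13905, and the lowest adjusted p was 0.183 among the members and 0.0677 among all genes. DESeq2 called 3 members higher (Phlda3, Epha2 and Eda2r), against 0.244% of all genes, and 0 lower, against 0.445%. Without the library S34F replicate 1, the 14 members fell to 7 (2.33% of all genes) and the median to 0.23, and 1 member, Btg2, was lower at an unadjusted p below 0.05 (2.46% of all genes). Without WT replicate 1, edgeR called 4 members higher (Trp53, Mdm2, Phlda3 and Epha2), against 6.72% of all genes. Btg2 and Sesn1 were lower at an unadjusted p below 0.05 in that fit. The share of all genes lower at that threshold was not computed, so these 2 members have no background beside them. In bulk samples, fewer cells of a type and less RNA per cell cannot be told apart.

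**Figure D1:**
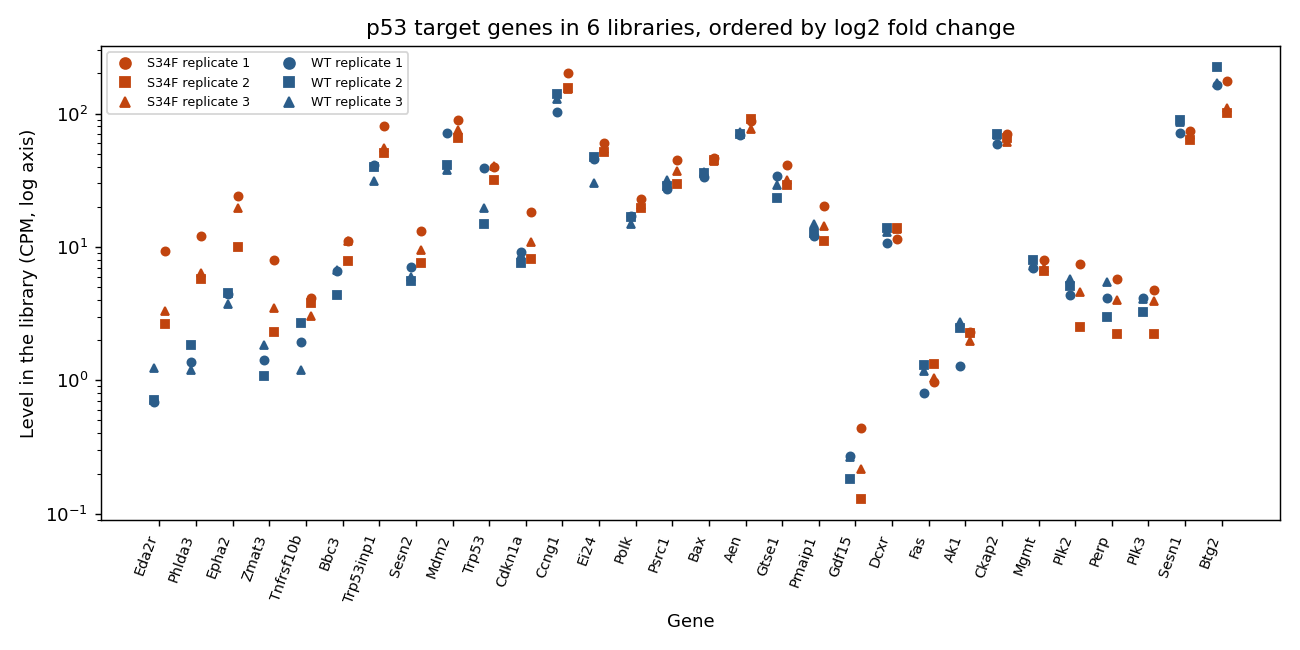
Level of each of the 30 p53 target genes in every library, in CPM (counts per library after scaling by its size) on a log axis, ordered by log2 fold change of S34F (orange) over WT (blue), with marker shape for the replicate number. The S34F libraries of Eda2r, Phlda3, Epha2 and Zmat3, on the left, all lie above the WT libraries, and S34F replicate 1 is the highest library in 22 of the 30 genes.

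Gene counts per library ran from 46827909 to 51862032 in S34F and from 54727541 to 94562984 in WT. Kit and Cd34, which the sort selects for, summed to 844 to 1059 CPM in S34F and 916 to 1029 CPM in WT. Ly6a, Fcgr3 and Fcgr2b, which it selects against, summed to 70.3 to 128 CPM in S34F and 82.0 to 163 CPM in WT. Replicate 1 was a male pool in both genotypes (Ddx3y counts of 5714 and 5580, and 0 in the other 4 libraries). Of 8 fixed markers of dendritic cells and macrophages, all measured, the summed level was 282 to 445 CPM in S34F and 523 to 568 CPM in WT, and of 5 megakaryocyte markers it was 87.5 to 116 against 127 to 172 CPM. The summed markers of erythroid, granulocyte and monocyte, lymphoid, mast and stem cells overlapped between the genotypes, and no marker in the table was at 0 in any library. The part of the dendritic and megakaryocyte markers in the differences below was not tested.

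Some targets carry recognisable p53 sites in the reference genome, which are shown because the binding site is what defines such a target. A site was taken as a pair of adjacent decamers, each with 3 purines, C, A or T, A or T, G and 3 pyrimidines, on either strand within 2500 bases of the annotated gene start, with the C and G of both cores intact and up to 2 mismatches elsewhere. By this rule 13 of the 30 members held a site, against 5.43% of 13872 genes. With at most 1 mismatch the members were 6 against 0.923% of genes, and with 0 mismatches Zmat3 alone against 0.108%. The sites of 5 genes are printed 5′ to 3′ (reference build mm9), with both core tetramers in capitals. These are Cdkn1a and the 4 genes with a site and an unadjusted p below 0.05 in edgeR. Sites with 1 mismatch in Gdf15, Gtse1 and Psrc1 are not printed.
Zmat3, chr3:32263253-32263272, minus strand: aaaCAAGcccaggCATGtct
Ccng1, chr11:40568438-40568457, minus strand: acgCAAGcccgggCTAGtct
Ccng1, chr11:40568964-40568983, minus strand: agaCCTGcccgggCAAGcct
Cdkn1a, chr17:29227873-29227892, plus strand: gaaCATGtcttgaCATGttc
Eda2r, chrX:94571873-94571892, minus strand: gggCAAGtccgggCCTGtgt
Bax, chr7:52721944-52721963, minus strand: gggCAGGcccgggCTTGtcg
The Cdkn1a site lies 51 bases before the annotated start of the gene, the Zmat3 site 1328 bases after it, and the Eda2r site 663 bases after it. A match describes the sequence and does not show binding. Of the 13 members with a site, 4 had an unadjusted p below 0.05 in edgeR (Zmat3, Ccng1, Eda2r and Bax), and of the 17 without one, 10 did. The median log2 fold change was 0.24 with a site and 0.42 without. Widening the window to 5000 bases left 13 members with a site and raised the share of all genes to 11.0%.

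Trp53 (chr11:69393861-69405375) was at 39.5, 31.8 and 40.6 CPM in the S34F libraries 1, 2 and 3 and at 39.3, 14.7 and 19.5 CPM in the WT libraries. WT replicate 1 lay within the S34F range and the other WT libraries lay below it. The log2 fold change was 0.61 ± 0.34 (standard error, SE), with an adjusted p of 0.587 in edgeR. Without WT replicate 1 it was 1.12, with an adjusted p of 0.0139 in edgeR, and without WT replicate 2 it was 0.34, with an adjusted p of 0.824.

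The 3 members grouped here as acting back on p53 were all higher in S34F at an unadjusted p below 0.05 in edgeR. The share of all genes in that direction was 4.39%. The grouping by role was set here and is not exhaustive. Mdm2 (chr10:117125944-117147814), the main inhibitor of p53, was at 89.5, 65.3 and 75.7 CPM in S34F and 71.5, 41.3 and 38.0 CPM in WT, and its genotypes overlapped because WT replicate 1 was above S34F replicate 2. The log2 fold change of Mdm2 was 0.61 ± 0.25 (SE), with an adjusted p of 0.548 in edgeR, and 0.96 with an adjusted p of 0.0137 without WT replicate 1. Both Trp53 and Mdm2 therefore had their highest WT level in replicate 1.
Trp53inp1, a stress protein that assists p53 and takes part in autophagy, was at 80.3, 50.6 and 55.5 CPM in S34F and 40.8, 39.9 and 31.1 CPM in WT, with no overlap. Its log2 fold change was 0.74 ± 0.20 (SE; adjusted p 0.538, edgeR). Ccng1, an atypical cyclin that recruits a phosphatase to Mdm2, was at 200.3, 157 and 153 CPM in S34F and 102, 140 and 128 CPM in WT, again with no overlap, and differed by 0.46 ± 0.15, or by 0.21 without both replicate 1 libraries. The S34F replicate 1 library was the highest for each of these 3 genes.

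Among the signalling genes, Phlda3 and Epha2 were several-fold higher in S34F. Phlda3 (chr1:137662696-137665713) encodes a small protein that competes with the kinase Akt for membrane lipids. Its level was 12.1, 5.72 and 6.34 CPM in S34F and 1.38, 1.83 and 1.19 CPM in WT, so that the lowest S34F library was still well above the highest WT library. The fold change was 5.48, or 2.45 ± 0.35 on the log2 scale (SE), with an adjusted p of 0.183 in edgeR and 3.35e-09 in DESeq2, and it ranked 10 among all genes by p.
Epha2 (chr4:140857155-140885299), a receptor tyrosine kinase for ephrins, was at 24.1, 9.92 and 19.5 CPM in S34F and 4.44, 4.53 and 3.72 CPM in WT. The 3 WT libraries were close together, and S34F replicate 2 was the lowest of the S34F libraries. The fold change was 4.22, or 2.08 ± 0.31 on the log2 scale, with an adjusted p of 0.191 in edgeR and 3.18e-08 in DESeq2. Both genes were called by edgeR when WT replicate 1 was left out, with adjusted p of 0.0181 for Phlda3 and 0.0199 for Epha2. Gdf15, a secreted member of the TGF-beta family and a circulating marker of stress, was at or below 0.440 CPM in every library and its log2 fold change was 0.14 ± 0.51.

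Of the 3 receptors of the TNF receptor family, Eda2r and Tnfrsf10b were separated by genotype and Fas was not. Of all genes, 7.16% were separated with S34F higher. Eda2r (chrX:94529179-94572555), a receptor for an isoform of ectodysplasin, was at 9.26, 2.63 and 3.31 CPM in S34F and 0.689, 0.718 and 1.25 CPM in WT. S34F replicate 1 was far above the other S34F libraries. The fold change was 5.68, or 2.51 ± 0.53 on the log2 scale (SE), with an adjusted p of 0.459 in edgeR and 3.96e-04 in DESeq2. Without S34F replicate 1 the log2 fold change was 1.74.
Tnfrsf10b, the receptor for the death ligand TRAIL, was at 4.13, 3.82 and 3.03 CPM in S34F and 1.94, 2.67 and 1.19 CPM in WT. Its log2 fold change was 0.92 ± 0.33 (SE; adjusted p 0.538, edgeR). Fas, the receptor for Fas ligand, stayed between 0.798 and 1.32 CPM in all 6 libraries, with a log2 fold change of 0.02 ± 0.31.

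Zmat3 (chr3:32233718-32264600), a zinc finger protein that binds RNA, was at 7.96, 2.31 and 3.47 CPM in S34F and 1.41, 1.08 and 1.84 CPM in WT. All S34F libraries were above all WT libraries, and S34F replicate 1 was more than 2 times either of the other S34F libraries. The log2 fold change was 1.66 ± 0.47 (SE), with an adjusted p of 0.538 in edgeR and 0.0537 in DESeq2. Leaving out S34F replicate 1 brought it to 0.99.

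Among the apoptosis genes the differences were smaller, and 4 of the 6 had S34F libraries all above WT, against 7.16% of all genes. Bax, which forms pores in the outer mitochondrial membrane, was the tightest of these, at 46.7, 44.9 and 43.8 CPM in S34F and 33.7, 35.7 and 36.8 CPM in WT. Its log2 fold change was 0.35 ± 0.09 (SE), with an adjusted p of 0.538 in edgeR. Bbc3, which encodes the BH3-only protein PUMA, was at 11.0, 7.87 and 11.1 CPM in S34F and 6.56, 4.36 and 6.76 CPM in WT and differed by 0.76 ± 0.23.
Bbc3 had its lowest level of each genotype in replicate 2. Aen, an apoptosis-enhancing nuclease, was at 88.0, 91.4 and 77.1 CPM in S34F and 69.3, 69.7 and 73.0 CPM in WT (log2 fold change 0.28 ± 0.10, SE). Ei24, a protein of the endoplasmic reticulum, was at 60.0, 51.1 and 53.8 CPM in S34F and 45.7, 47.1 and 30.1 CPM in WT (0.42 ± 0.18), with WT replicate 3 well below the other WT libraries. Without that library the log2 fold change of Ei24 was 0.24. The remaining members overlapped between genotypes. Pmaip1, the BH3-only protein NOXA, had a log2 fold change of 0.19 ± 0.22, and Perp, a membrane protein of desmosomes, one of -0.07 ± 0.38.

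None of the 7 arrest and checkpoint genes was separated by genotype, against 7.16% of all genes with S34F higher and 8.47% with S34F lower. The median log2 fold change of the 7 was -0.01. Cdkn1a (chr17:29227924-29237667), which encodes the cyclin-dependent kinase inhibitor p21, was at 18.3, 8.18 and 10.9 CPM in S34F and 9.12, 7.56 and 8.77 CPM in WT. S34F replicate 1 stood alone at the top and S34F replicate 2 lay within the WT range. The log2 fold change was 0.55 ± 0.29 (SE), with an adjusted p of 0.571 in edgeR. It was 0.17 without S34F replicate 1 and 0.78 without S34F replicate 2.
Btg2, an antiproliferative cofactor of mRNA deadenylation, had the lowest log2 fold change of the 30, at 175.9, 100.3 and 110.1 CPM in S34F and 164, 221 and 169 CPM in WT. It was -0.52 ± 0.23 (adjusted p 0.552, edgeR), and -0.81 without S34F replicate 1. Without both replicate 1 libraries it was -0.89, with an adjusted p of 0.0318 in edgeR. In that fit 4 members were called higher and 1 lower, against 3.66% and 0.639% of all genes. Psrc1 and Gtse1, microtubule-associated proteins of the mitotic spindle, had log2 fold changes of 0.35 ± 0.16 and 0.24 ± 0.19. The microtubule-associated Ckap2 and the polo-like kinases Plk2 and Plk3 were between -0.07 and -0.01.

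In metabolism, stress and repair, Sesn2 and Polk were separated by genotype with S34F higher (7.16% of all genes) and 4 genes were not. Sesn2, a sestrin that restrains the growth kinase mTORC1 when nutrients are scarce, was at 13.1, 7.59 and 9.47 CPM in S34F and 7.12, 5.52 and 5.97 CPM in WT (log2 fold change 0.70 ± 0.23, SE, and 0.46 without S34F replicate 1). Polk, a DNA polymerase that copies past damaged bases, was at 22.8, 19.5 and 20.7 CPM in S34F and 16.9, 16.9 and 15.0 CPM in WT (0.37 ± 0.12). Both had an adjusted p of 0.538 in edgeR. Sesn1, the other sestrin of the list, had a log2 fold change of -0.25 ± 0.12 with overlapping libraries. Dcxr, a carbonyl reductase, Ak1, an adenylate kinase, and Mgmt, which repairs alkylated guanine, were between -0.03 and 0.06.
Polk, Ei24 and Plk3 overlap annotated genes on the opposite strand, and Sesn2 and Ak1 on the same strand. The sources used here do not give the strand setting of the counting, so reads of such pairs may be shared.

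**Figure D2:**
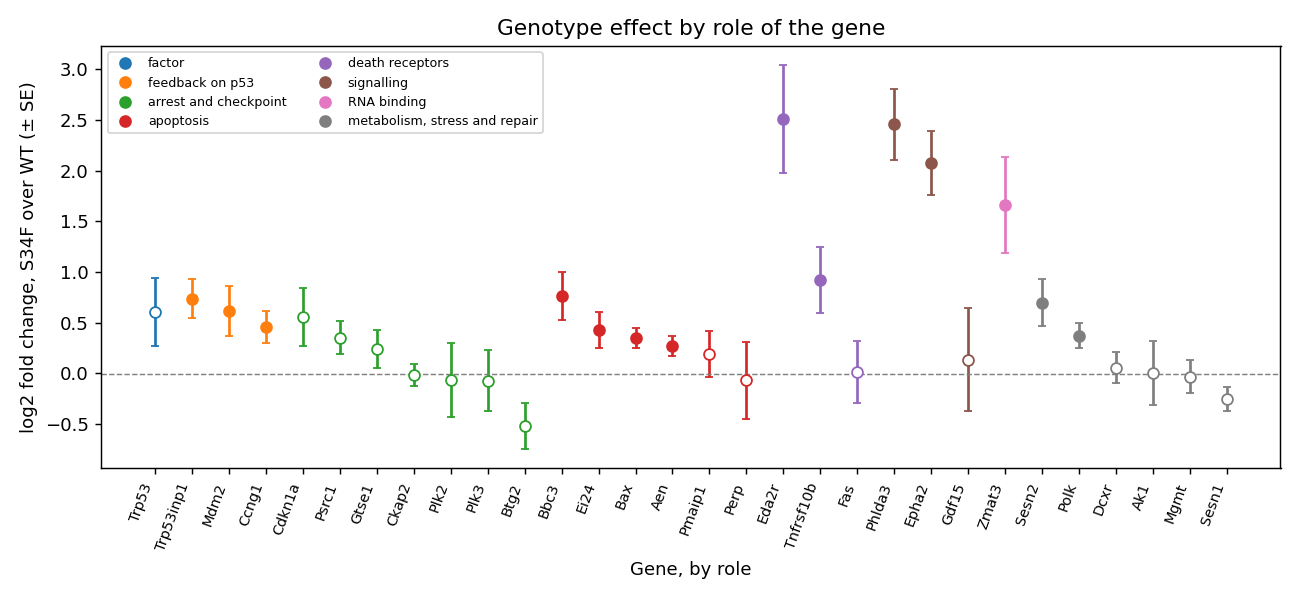
Log2 fold change of S34F over WT for each gene (points, with bars of 1 SE), grouped and coloured by role, with filled points for an unadjusted edgeR p below 0.05 and a dashed line at the median of all genes (-0.01). Filled points lie among the feedback, apoptosis, TNF receptor family, signalling, RNA binding and metabolism genes, and all 7 arrest and checkpoint genes are open. The TNF receptor family genes carry the legend label death receptors.

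Levels between genes can be compared only per length, as FPKM (a count scaled by gene length and library size), which the authors deposited for 29 of the 30. In WT the median FPKM was highest for Btg2 at 48.4 and Bax at 26.5, and lowest for Zmat3 at 0.111 and Eda2r at 0.0967. The genes with the widest log2 separation thus included those of the lowest level. On the FPKM scale all genes shifted by a median of -0.32 in log2(FPKM + 0.1), and the members had a median of 0.08, which is 0.39 above that shift, with 23 of 29 above it. A limma fit on that scale called Phlda3, Epha2 and Eda2r higher, against 0.0921% of all genes, and Btg2 lower, against 1.05%. Of the 13 members separated in CPM, 4 were also separated in FPKM (Phlda3, Epha2, Eda2r and Tnfrsf10b). Btg2 and Sesn1, which overlapped in CPM, were separated in FPKM with lower values in S34F, at -0.90 and -0.60. The share of all genes separated in FPKM was not computed in either direction. Whether these separations differ from those of genes in general, given the shift of -0.32, was therefore not tested. Of the members above 0 in CPM, 6 were below 0 in FPKM (Aen, Gtse1, Pmaip1, Dcxr, Fas and Ak1), all of them above the shift of all genes.

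Libraries with the same replicate number were set side by side to show how the difference varied. The labels give no shared batch or animals behind these numbers. In the replicate 1 libraries, the male pools, the median log2 ratio of S34F to WT over the 30 genes was 0.59, against 0.14 in replicate 2 and 0.24 in replicate 3. All 3 ratios were above 0 in 19 members, against 17.4% of all genes. S34F replicate 1 was the highest of the 6 libraries in 22 members, against 18.4% of all genes, and lay above both other S34F libraries in 25 of 30 (35.7% of all genes). WT replicate 1 lay above both other WT libraries in 9 of 30 (39.9% of all genes).
Eda2r showed the widest range of ratios, at 3.75, 1.87 and 1.41 in log2 for replicates 1, 2 and 3. For Cdkn1a the ratios were 1.00, 0.11 and 0.31. Trp53 had the opposite order, at 0.01, 1.11 and 1.06, as had Mdm2 at 0.32, 0.66 and 0.99.
The S34F to WT ratio was larger in replicate 1 than in both other replicates in 22 of 30 members, against 34.8% of all genes. In edgeR's test of this interaction 6 members had an unadjusted p below 0.05 with a higher ratio in replicate 1, against 3.29% of all genes, and 2 (Trp53 and Mdm2) had one with a lower ratio, against 9.33%. Of the 6, Btg2 and Sesn1 had ratios near 0 in replicate 1 (0.10 and 0.05) and below 0 in the others, Plk2 and Pmaip1 had ratios above 0 in replicate 1 and below 0 in the others, and Eda2r and Ccng1 were above 0 in all 3. After adjustment edgeR called 0 members and 0 of all genes, while DESeq2 called 2 members, Ccng1 (adjusted p 0.0068) and Btg2 (0.0123), against 3.22% of all genes. Each genotype had 1 library with this number. In simulated data with changes planted in S34F replicate 1 alone, edgeR's test recovered 0% of 1.5-fold and 0% of 2-fold changes. It recovered 40% of 4-fold and 62% of 8-fold changes, so large differences may also be missed. Sex and any other property of those pools cannot be told apart.

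**Figure D3:**
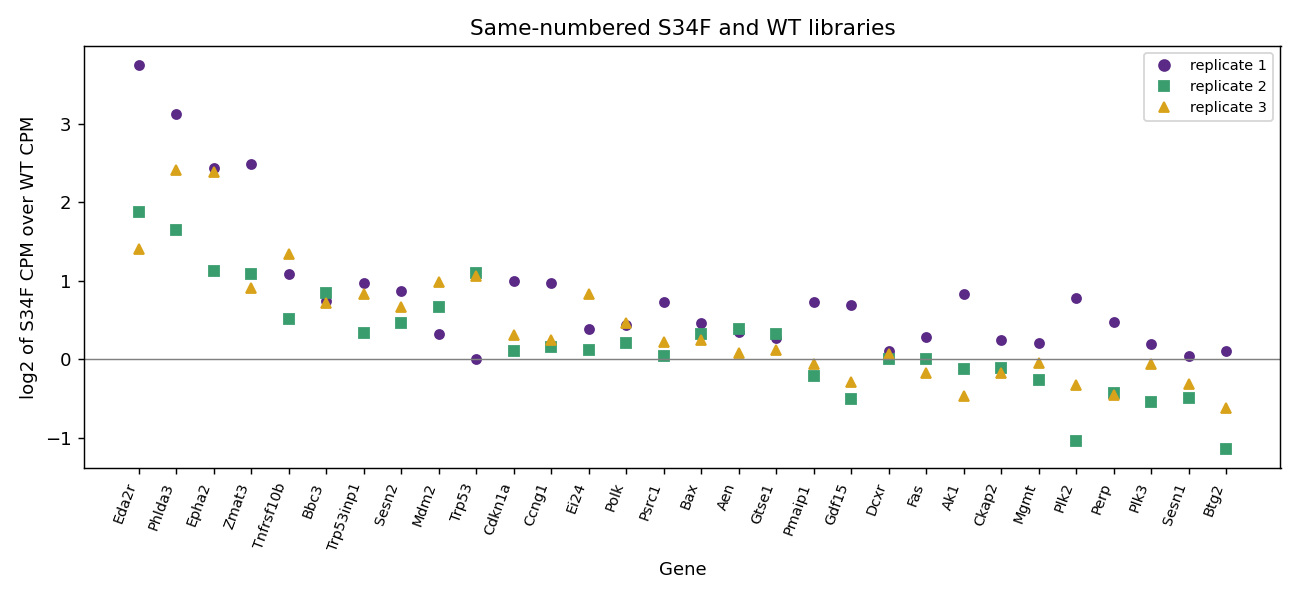
Log2 ratio of the S34F to the WT level (CPM) for libraries of the same replicate number, per gene in the order of the plot of levels. Replicate 1 (purple circles) lies highest for most genes, with Trp53, near 0.01, and Mdm2, at 0.32, as exceptions where it is the lowest.

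Other genes of the pathway, from lists that do not include the 30, were centred near 0. Of 29 further p53 targets 26 were tested, 15 were higher and 11 lower, and the median log2 fold change was 0.03. An unadjusted p below 0.05 in edgeR was reached by 3 of the 26 with higher levels, against 4.39% of all genes. These were the noncoding RNA Pvt1 (0.86 ± 0.23, SE), the thiamine transporter Slc19a2 (0.47 ± 0.15) and 9030617O03Rik (0.32 ± 0.12). The threshold was also reached by 1 lower gene, the transcriptional cofactor Sertad1 (-0.50 ± 0.18), against 4.70% of all genes.
Of 25 regulators and partners of p53, 22 were tested, with 11 higher and 11 lower and a median of -0.01. Trp53bp1, a scaffold of the response to DNA breaks, had an unadjusted p below 0.05 at -0.31 ± 0.11. The p53 inhibitor Mdm4 was at -0.16 ± 0.14, and the damage kinases Atm and Chek2, which signal to p53, were at 0.00 ± 0.10 and -0.21 ± 0.11. Of 24 cell cycle genes that are lowered through p21 and the DREAM complex, 12 were higher and 12 lower with a median of 0.01, and Bub1b, a spindle checkpoint kinase, was the 1 with an unadjusted p below 0.05 (-0.34 ± 0.14). Of all genes, 4.70% were lower at that threshold, the direction of Trp53bp1 and Bub1b. No gene of these 3 lists was called by edgeR or by DESeq2.

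Because U2AF1 acts on splicing, the use of splice junctions within the members was examined as well. The deposited table held 236 junctions in 29 of the 30 members. Reads of each intron were set against those of introns sharing its donor or its acceptor, and cassette exons were set as included against skipped. An event needed 20 reads in every library. edgeR called 0 of 41 shared-donor, 0 of 37 shared-acceptor and 0 of 9 cassette events in members, against 0%, 0.0101% and 0.0277% of all events. At an unadjusted p below 0.05 the members had 3, 4 and 2 events, against 7.50%, 6.40% and 10.8% of all events, and DESeq2 called 1, 4 and 0 (1.24%, 0.775% and 1.37% of all events). DESeq2 gave no adjusted p for the 38-nt cassette exon of Trp53inp1 or the 137-nt and 157-nt ones of Mgmt. Such events were counted as not called. Those of 38 and 137 nt were the 2 cassette events with an unadjusted edgeR p below 0.05. DESeq2 gives no result for them as cassette events, but it tested their junctions as shared-donor and shared-acceptor events. Both forms of a site count as events, so these events are not independent.

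The acceptor sequences of the exons described next are printed because U2AF1 reads the bases around the intron's last AG. Each shows the last 20 intron bases and the first 3 exon bases, 5′ to 3′ on the gene's strand (mm9), with the base before the AG, intron position -3, in capitals.
Trp53inp1, 38-nt exon: tcaccatttaacatttgTagggc
Trp53inp1, next exon: cttactttggtctatttCagaat
Mdm2, 85-nt exon: tgttttttttctacttgTaggcc
Mdm2, next exon: ctttttcttttcttttaCaggtt
Mdm2, 97-nt exon: actttcttttatgtactTaggat
Mdm2, exon after the 97-nt exon: ccatgtcctttaatctaTagaag
Mgmt, 137-nt exon: taaaaattgcttctctcTaggaa
Mgmt, next exon: gcttcttatcctttttgCagccc
Trp53, proximal acceptor: cttaaattcctttttttCagcct
Trp53, distal acceptor: ccttttctgtcttcctaTagcta
All 4 exons have T at that position in the reference. The exons after them have C, except the one after the 97-nt exon of Mdm2, which has T.

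The 38-nt exon of Trp53inp1 (chr4:11095044-11095081, annotated and noncoding) had lower inclusion in S34F, at 16.9%, 23.6% and 17.3% in S34F and 35.9%, 33.1% and 31.1% in WT, from 140 to 219 reads per library. The difference was -14.1 percentage points between means of 19.2% ± 3.78 and 33.4% ± 2.41 (SD, n = 3 each), and the genotypes did not overlap. The unadjusted p was below 0.05 and the adjusted p was 0.438 in edgeR. The 2 junctions of the exon gave different values in WT replicate 3. On the upstream side introns share a donor. There the exon took 17.9%, 23.3% and 16.7% of reads in S34F and 40.5%, 33.1% and 39.5% in WT. The adjusted p was 0.622 in edgeR and 0.0772 in DESeq2. On the downstream side introns share an acceptor. There the exon took 15.9%, 23.9% and 17.9% in S34F and 30.5%, 33.1% and 20.1% in WT. The genotypes overlapped on that side (adjusted p 0.883 in edgeR and 0.743 in DESeq2).
In Mdm2 the 85-nt exon (chr10:117146756-117146840), of which 81 bases are coding in the annotation, had an inclusion of 52.4%, 51.6% and 67.1% in S34F, against 66.6%, 72.6% and 68.6% in WT, from 285 to 468 reads. S34F replicate 3 lay within the WT range, and edgeR gave an adjusted p of 0.538. A further cassette exon of Mdm2, of 97 nt, had an inclusion of 93.9% ± 0.463 in S34F, against 96.6% ± 1.18 in WT (SD, n = 3 each), with no overlap (adjusted p 0.483, edgeR).

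For Mgmt, Cdkn1a and Trp53 the difference rests on forms listed at 0 in WT libraries. The 137-nt exon of Mgmt (chr7:144142951-144143087) had an inclusion of 80.2%, 87.5% and 94.4% in S34F, against 100% in each WT library, from 135 to 242 reads (adjusted p 0.217, edgeR). The skipping junction had 17, 9 and 4 reads in S34F and 0 in each WT library. Among introns sharing its donor, this junction had an adjusted p of 0.471 in edgeR and 0.0036 in DESeq2. Among those sharing its acceptor, the adjusted p was 0.586 in edgeR and 0.0116 in DESeq2.
In Cdkn1a, the intron from a first exon at the annotated gene start (chr17:29228047-29235341) took 13.6%, 4.88% and 9.09% of the reads into the shared acceptor in S34F and 0% in WT. These are 12, 2 and 6 reads among 88, 41 and 66 in S34F, and 0 among 45, 70 and 180 in WT. edgeR gave an adjusted p of 0.586, and DESeq2 an adjusted p of 0.0244.
In Trp53, the proximal of 2 acceptors near the 3′ end of the gene took 10.7%, 17.3% and 14.2% of the reads in S34F and 9.17%, 0% and 0% in WT, from 30 to 121 reads (adjusted p 0.711, edgeR). Its exact zeros were in WT replicates 2 and 3.
Zeros in the junction table outnumbered single reads. Among junctions with at least 10 reads in each of the other 5 libraries and a mean of at most 40 there, WT replicate 3 listed 302 at 0 and 17 at 1 read, and S34F replicate 1 listed 55 and 9. A listed 0 may therefore be an entry that was dropped, and no upper limit is given for these shares.

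**Figure D4:**
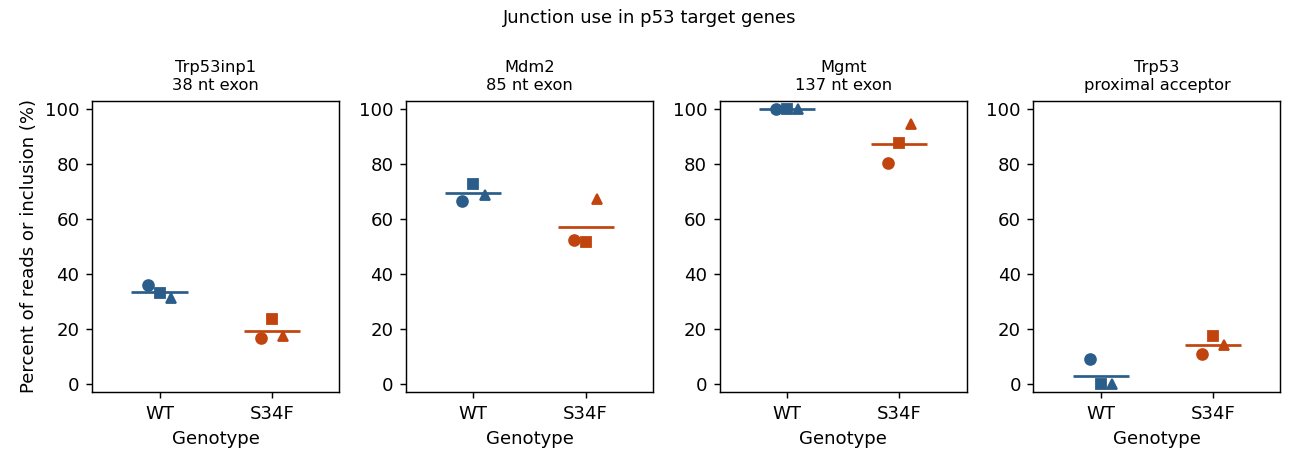
Inclusion of 3 cassette exons and share of the proximal acceptor of Trp53, in percent, for each library by genotype, with marker shape for the replicate number (circle 1, square 2, triangle 3) and lines at the means. The genotypes are apart for Trp53inp1 (16.9% to 23.6% against 31.1% to 35.9%) and overlap for Mdm2, and the WT values of 100% (Mgmt) and 0% (Trp53) rest on junctions listed at 0.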

How the data were processed

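Ribosome-depleted, strand-specific libraries were sequenced as paired reads of 100 bp, per the labels. The series text names TopHat 2.0.8 and mm9. Bowtie2 2.1.0, Cufflinks 2.1.1, HTSeq 0.5.4p1 and DESeq2 1.6.1 are named without a role in the submitters' processing notes. No source used here gives the annotation or the strand setting of the counting. Raw counts were deposited for 13932 genes and 151811 junctions. Per the file headers, the tables also hold p-values, a fold change (a ratio and its log2) and FPKM per gene, and for junctions a mean count used as coverage signal and a test statistic (a score); of these, only FPKM entered a fit.

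Gene counts were fitted with edgeR 4.0.16 in R 4.3.3 (TMM, filterByExpr, quasi-likelihood F test, two-sided, genotype only, 6 libraries), which kept 13905 genes and all 30 members. P-values were adjusted by Benjamini-Hochberg over all genes, with a threshold of 0.05. Levels are CPM scaled by TMM. DESeq2 1.42.0 and limma 3.58.1 (log2(FPKM + 0.1)) were alternatives; the latter was chosen after seeing the data. Junction events entered edgeR with terms for library, form and their interaction with genotype; the minor form had to reach 1% of reads, or 2% for cassette exons of 10 to 1000 nt. Printed junction positions were exon bases (0% GT-AG), and were moved 1 base inward (99.98% GT-AG). The scripts were tested on simulated data with planted changes. For genes, edgeR recovered 8% of 1.5-fold, 58% of 2-fold, 92% of 4-fold and 96% of 8-fold changes. It made 7 false calls over all planted sizes. DESeq2 recovered 26%, 70%, 98% and 94%, with 71 false calls. For junction events, edgeR recovered 6%, 32%, 88% and 94%, with 3 false calls. An edgeR result of 0 calls can therefore miss changes of 1.5-fold and 2-fold, and DESeq2 calls can include false ones. The simulated genotype data held no sex or replicate effect. With all 6 libraries edgeR did not call Phlda3, Epha2 or Eda2r, at fold changes of 5.48, 4.22 and 5.68. The reason was not tested. The total counts (46827909 to 94562984) set the precision, and Gdf15, the lowest member, rests on 6 to 25 reads.

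The members and lists were chosen with earlier results of these data known. Values per library were given for members with an unadjusted p below 0.05 and for Trp53, Mdm2 and Cdkn1a; Btg2 was given per library after its values were seen. The labels describe separate pools but not whether pools shared marrow donors, so p-values measure the spread between these samples.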

Additional observations from a re-analysis of the deposited data

How the results depend on the processing

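The median of the members stayed above 0 in every alternative run, and their call depended on the tool and on replicate 1. Genes called numbered 0 in edgeR, 96 in DESeq2, 599 in edgeR without both replicate 1 libraries, 136 in limma on FPKM, and 0 to 1172 with 1 library left out, the highest without WT replicate 1. Members called were 0, 3, 5, 4 and 0 to 4 in the same order. The members' median log2 fold change was 0.22 without both replicate 1 libraries, 0.077 on FPKM and 0.23 to 0.44 with 1 library left out. Genes of the further lists called numbered 0 in edgeR, 2 without both replicate 1 libraries and 0 to 9 with 1 library left out. Among members with an unadjusted p below 0.05, Aen reversed to -0.045 on the FPKM scale, where all genes shifted by -0.32. The interaction with replicate 1 called 0 genes in edgeR and 379 in DESeq2. Junction events called were 5 in edgeR, 695 in DESeq2 and 0 to 5 with 1 library left out, and events of members 0 in edgeR and 5 in DESeq2. Same-numbered libraries correlated in their deviations at 0.208, 0.272 and 0.0242, against -0.289 to 0.0785 between different numbers. Replicates 1 and 2 thus lay above that range and replicate 3 within it. Replicate 1 was male in both genotypes, but the labels give no shared batch. The numbers were not taken as pairs in the main fit. With the replicate block, edgeR called 5 genes, 0 members and 0 junction events, and DESeq2 called 444 genes, 8 members (2.57% of genes were called higher) and 1 gene of the further lists. Of the 8, Trp53inp1, Mdm2, Bbc3, Zmat3 and Trp53 (adjusted p of 0.0018, 0.0040, 0.011, 0.013 and 0.040) were not called by DESeq2 without the block. The cause of these changes was not tested. Genes below about 1 CPM and junction forms with few reads are limited by depth.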
